A study of Mus musculus with 13 samples.

Results

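The solute carrier (Slc) genes measured here are the 204 array probes, of 169 gene symbols, whose annotated symbol begins with Slc, a family number, an a and a member number, and whose detection p was under 0.01 on at least 2 of 13 arrays. The chip carried 440 such probes of 301 symbols among 25697 probes in all. Members were therefore selected on their detection p, and each count of detected members below is a description. Of the 204 member probes, 36 were detected on all 13 arrays and 22 on exactly 2, the fewest that the rule admits, while 24 probes on 1 array and 212 on none fell outside it. Of the 169 symbols, 4 (Slc4a1ap, Slc7a6os, Slc9a3r1 and Slc9a3r2) belong to proteins named for a carrier or its gene and carry nothing themselves, and they are kept in the counts as their own class.

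The study asked whether a transplanted nucleus changes its transcription when the first DNA replication is blocked. Mouse embryos were made by somatic cell nuclear transfer (SCNT), from enucleated C3H/HeN oocytes of mice aged 6 to 8 weeks and cumulus cell nuclei of C57Bl/6J mice aged 10 weeks, or from intact oocytes and C57Bl/6J sperm, which the methods describe as injected and the labels as in vitro fertilization. Aphidicolin (Aph), an inhibitor of replicative DNA polymerases, was given at 2 µg/ml from 6 to 96 hours past activation (Aph+) or left out (Aph-). Fertilized Aph-, fertilized Aph+ and SCNT Aph- embryos have 3 arrays each and SCNT Aph+ embryos 1 array. Unfertilized MII oocytes (1 array) and cumulus cells (2 arrays), both labelled B6C3F1, complete the set. The 3 arrays of an embryo group carry different sample types (no time, 96 h, or blastocyst), which are taken here as replicates, and the labels call each 1 biological replicate. According to the methods, Aph+ embryos stayed at the 1-cell stage and Aph- embryos were pooled whatever stage they had reached, although every embryo sample is labelled blastocysts. In such pools, fewer cells of a type and less RNA per cell cannot be told apart.

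Solute carriers are membrane proteins that move small molecules down, or with the help of an ion gradient against, their gradient: sugars, amino acids, nucleosides, ions, vitamins and the substrates of mitochondria. The early mouse embryo first lives on pyruvate and lactate and takes up much more glucose as it forms a blastocyst, through carriers of the Slc2 family. Its amino acid carriers also change between the oocyte and the blastocyst, and glycine, taken up by Slc6a9, helps the oocyte and cleaving embryo hold their volume.

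Values are log2 intensities after background correction and quantile normalization, on which an undetected probe lies near 4 to 6. A value is called detected at a detection p under 0.01. Differences come from 1 limma model of all 6 groups, with p-values adjusted over 8543 genes in each comparison, and a gene is called higher or lower (rose or fell) at an adjusted p under 0.05 and at least 2-fold. The MII oocyte and SCNT Aph+ groups have 1 array each, and each lone array is assumed to vary like the arrays of the other groups. Where no array of the dimmer group detected the gene, "at least" gives the bright mean over the lowest detected signal (or the gene's own signal where higher) of the dim arrays. Levels of different genes are not set against each other.

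The fertilized Aph- arrays detected 132 to 134 of the 169 members and the SCNT Aph- arrays 109 to 125. The MII oocyte array detected 91 and the cumulus arrays 84 and 130. Fewer were detected with Aph, 75 to 89 on the fertilized Aph+ arrays and 76 on the SCNT Aph+ array. The share of all kept probes with a symbol that were detected moved in the same way, from 78.9% to 81.2% for fertilized Aph-, 66.3% to 75.2% for SCNT Aph-, 54.8% for the oocyte, 58.8% and 79.7% for cumulus, 49.3% to 56.9% for fertilized Aph+ and 52.6% for SCNT Aph+. The mean raw intensity was lowest on the SCNT Aph+ array, at 89.8, against 116 to 129 on the fertilized Aph+ arrays and 145 to 465 on the others. Its part in the lower counts was not tested. There were 34 members detected on all 13 arrays, and 1, Slc27a5, was detected on every fertilized Aph+ array and on no array of another group.

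**Figure D1:**
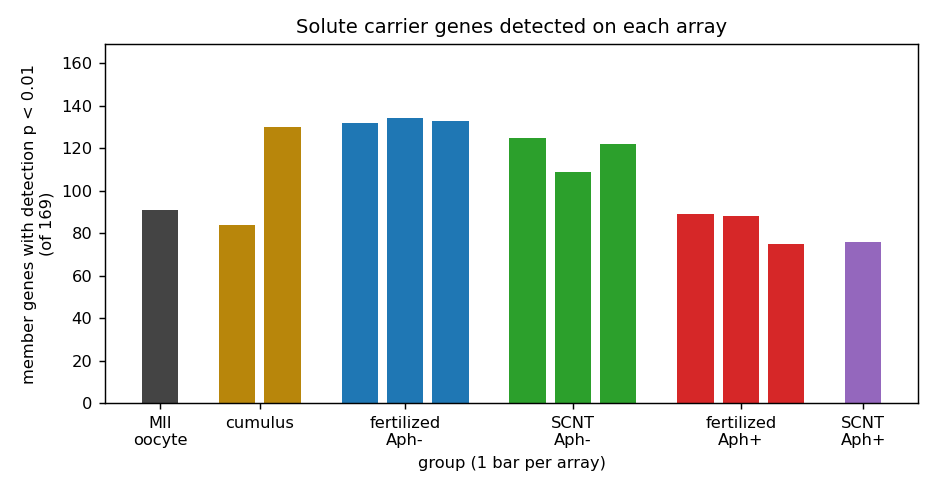
Number of the 169 member genes with a detection p under 0.01 (vertical axis) on each of the 13 arrays, 1 bar per array, coloured by group. The 3 fertilized Aph- bars stand at 132 to 134 and the 4 Aph+ bars at 75 to 89.

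The arrays of a group did not agree equally well. Over all genes tested, pairs of fertilized Aph- arrays correlated at r = 0.978 to 0.985, SCNT Aph- arrays at 0.967 to 0.971, the cumulus pair at 0.946, and fertilized Aph+ arrays at 0.840 to 0.845. The median SD of the members over arrays of a group was 0.205, 0.289, 0.292 and 0.540 (log2) in the same order. Cell type markers were looked at beside the carriers. All 8 trophectoderm markers were detected on every Aph- array, 5 or 6 on the Aph+ arrays and 2 on the oocyte and cumulus arrays. Of 12 cumulus markers, 10 were detected on the SCNT Aph+ array, 10 and 11 on the cumulus arrays, 5 in the oocyte and 2 to 5 on the other embryo arrays. Their summed log2 level was 94.3 on the SCNT Aph+ array and 94.1 and 94.3 on the cumulus arrays. It was 68.3 in the oocyte and 61.3 to 73.6 on the other embryo arrays. The cumulus markers Has2 and Tnfaip6 were undetected on the SCNT Aph+ array, at 5.95 and 5.12. Tnfaip6 was undetected on both cumulus arrays too (4.6 and 4.4). Has2 was detected on both, and its SCNT Aph+ value lay between their values. Of 9 oocyte markers, 6, 6 and 8 were detected on the fertilized Aph+ arrays, 2 to 4 on the Aph- embryo arrays, 6 on the SCNT Aph+ array, 8 in the oocyte and 1 on each cumulus array. Their summed log2 level was 77.5, 75.6 and 80.4 on the fertilized Aph+ arrays, 42.2 to 46.2 on the Aph- embryo arrays, 91.8 in the oocyte and 79.1 on the SCNT Aph+ array, and their part in the differences between Aph+ and Aph- embryos was not tested. The part of cumulus cell RNA in the SCNT Aph+ values was not tested, and each comparison with that array is to be read beside these markers.

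Fertilized Aph- embryos had 45 of the 169 members above and 37 below the MII oocyte, beside 26.7% above and 20.8% below among all genes tested. The SCNT Aph- count was 43 above and 37 below (26.9% and 21% of all genes). The fertilized Aph+ count was 25 above and 43 below (21% and 22.2%), and the SCNT Aph+ count 22 above and 31 below (18.7% and 15.8%). Cumulus cells had 34 above and 30 below the oocyte (25% and 19.5%). Aph+ against Aph- gave 36 higher and 51 lower members after fertilization (18.9% and 24.8% of all genes) and 22 higher and 43 lower after SCNT (14.3% and 16.7%). Without Aph, SCNT differed from fertilization in 3 members, 1 higher and 2 lower after SCNT (0.187% and 0.375% of all genes). Most of these shares lie near those of all genes. Members were lower more often than all genes in SCNT Aph+ against SCNT Aph- embryos, with 43 of 169 (25.4%) beside 16.7%, and no test was made of that gap. The counts by transport class given below stand beside the same shares of all genes, and no class was tested against other genes. The median member differed from the oocyte by 0.28 (log2) without Aph, after fertilization as after SCNT (all genes 0.21 and 0.20). With against without Aph it differed by -0.30 after fertilization and by -0.32 after SCNT (all genes -0.16 and -0.20).

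Scaling changed the split of some calls. With arrays scaled to their 75th percentile in place of quantile normalization, SCNT Aph+ against the oocyte gave 3 higher and 41 lower members, cumulus against the oocyte 25 and 41, and fertilized Aph+ against Aph- 51 and 47. The 45 and 37 of fertilized Aph- embryos against the oocyte became 41 and 46. Under that scaling the median of all genes shifted from 0.07 to 0.24 in SCNT Aph+ against the oocyte and from 0.21 to -0.30 in fertilized Aph- against the oocyte. No gene among the 228 named results changed its direction under any alternative that was run.

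**Figure D2:**
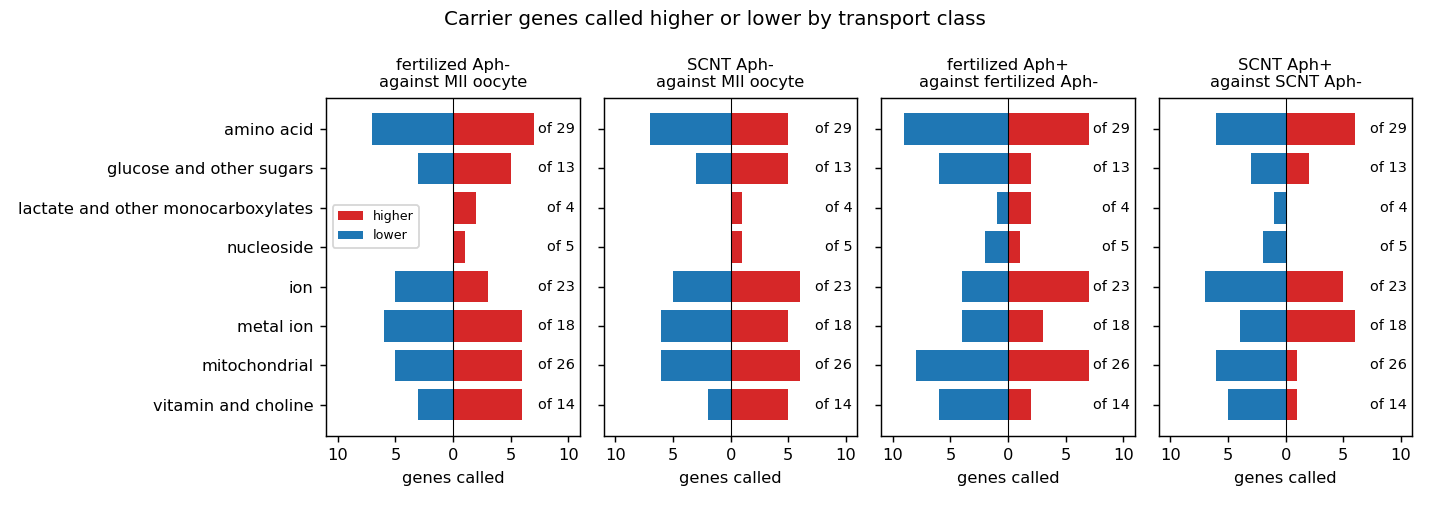
Member genes called higher (red, to the right) or lower (blue, to the left) at an adjusted p under 0.05 and at least 2-fold, by transport class and for 4 comparisons; the number of members of the class stands at the right. Of the 29 amino acid carriers, 7 were higher and 9 lower in fertilized Aph+ than in fertilized Aph- embryos (18.9% and 24.8% of all genes).

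Several sugar carriers were much higher in Aph- embryos than in the oocyte. Of 13 members, 5 were higher and 3 lower than in the oocyte without Aph, after fertilization and after SCNT alike in number. Among all genes, 26.7% were higher and 20.8% lower after fertilization, and 26.9% and 21% after SCNT. Slc2a3, a high-affinity glucose carrier of trophectoderm and neurons, had log2 intensities of 5.72 in the oocyte, an undetected 5.60 and 5.77 in cumulus cells, 11.90, 11.96 and 11.98 in fertilized Aph-, 12.22, 11.86 and 12.09 in SCNT Aph-, 9.94, 10.96 and 10.01 in fertilized Aph+ and 7.55 in SCNT Aph+ embryos. The Aph- embryos were alike, the fertilized Aph+ arrays lay below them without overlap, and the SCNT Aph+ array lay between those and the oocyte. Slc2a3 rose by 6.23 ± 0.41 over the oocyte in fertilized Aph- embryos (log2 ± SE here and below; 75.1-fold, adjusted p = 2.73e-06) and by 6.34 ± 0.41 in SCNT Aph- embryos (adjusted p = 2.14e-06). It was still higher than in the oocyte with Aph, by 4.58 ± 0.41 after fertilization (adjusted p = 1.31e-05) and by 1.83 ± 0.50 after SCNT (adjusted p = 0.0168). Aph+ against Aph- embryos fell by 1.65 ± 0.29 after fertilization (adjusted p = 0.000891) and by 4.50 ± 0.41 after SCNT (adjusted p = 4.14e-05).

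Slc2a1, the facilitated glucose carrier of most cells, was detected in every group: 8.24 in the oocyte, 9.97 and 8.87 in cumulus cells, 7.77, 8.14 and 8.21 in fertilized Aph-, 8.47, 9.18 and 8.79 in SCNT Aph-, 6.89, 6.49 and an undetected 5.82 in fertilized Aph+, and 8.94 in SCNT Aph+ embryos. Only the fertilized Aph+ arrays stood apart, below all others. Slc2a1 fell by 1.64 ± 0.37 there against fertilized Aph- embryos (3.11-fold, adjusted p = 0.00403) and by 1.84 ± 0.52 against the oocyte (adjusted p = 0.0143). Slc2a8, an intracellular glucose carrier, was detected on all Aph- embryo arrays, at 6.0 to 6.23 after fertilization and 6.32 to 6.81 after SCNT, and on no Aph+ array (4.25 to 4.52). It rose over the undetected oocyte value of 4.90 at least 1.39-fold and 1.89-fold (adjusted p = 0.00741 and 0.00117). Slc5a11, a sodium-coupled inositol carrier, was likewise detected on the 6 Aph- embryo arrays alone, at 8.60 to 8.95 after fertilization and 9.41 to 9.69 after SCNT. It was at least 8.58-fold and 14.3-fold above the oocyte (adjusted p = 5.09e-05 and 1.79e-05), and at least 7.51-fold and 11.7-fold above the Aph+ embryos of the same origin (adjusted p = 1.46e-05 and 4.48e-05).

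Slc45a3 ran the other way, and Slc5a4b did so only with Aph after fertilization. Slc45a3, a family member reported to carry sucrose, was 12.41 in the oocyte, an undetected 4.74 and 5.07 in cumulus cells, 6.35, 5.95 and 6.03 in fertilized Aph-, 5.57, an undetected 4.41 and 5.51 in SCNT Aph-, 8.82, 7.89 and 8.50 in fertilized Aph+ and 8.99 in SCNT Aph+ embryos. The oocyte was highest, the 4 Aph+ arrays came next without overlap, and the Aph- embryos and cumulus cells were low. It fell by 6.30 ± 0.51 from oocyte to fertilized Aph- embryos (78.7-fold, adjusted p = 7.09e-06), by 7.25 ± 0.51 to SCNT Aph- embryos (adjusted p = 3.11e-06), and by 4.01 ± 0.51 and 3.41 ± 0.62 to the fertilized and SCNT Aph+ embryos (adjusted p = 0.000109 and 0.00223). Slc5a4b was 9.87, 7.28 and 9.16 in fertilized Aph+ embryos, 5.95 to 6.39 in fertilized Aph- and 6.0 to 7.02 in SCNT Aph- embryos, and undetected in the oocyte and SCNT Aph+ arrays (4.41 and 4.39). It rose with Aph after fertilization by 2.66 ± 0.61 (6.32-fold, adjusted p = 0.00459). Slc2a13, a proton-coupled myo-inositol carrier, was detected in the oocyte (7.47), in cumulus cells (7.51 and 6.83) and on the SCNT Aph+ array (6.12), and on none of the other 9 embryo arrays (4.19 to 4.44).

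Lactate and pyruvate carriers were mostly not measured above background. Slc16a1, Slc16a3 and Slc16a7, the classical carriers of lactate and pyruvate, were detected on no array, so nothing can be said of their levels here. They were among 11 of 49 textbook carriers that were on the chip and detected nowhere, together with Slc2a4, Slc5a1, Slc7a1, Slc7a10, Slc1a5, Slc6a14, Slc6a20a and Slc25a31, while 33 of the 49 were members. Of the monocarboxylate class, 4 genes were members. Of these, 2 were higher and 0 lower than the oocyte in fertilized Aph- embryos (26.7% and 20.8% of all genes). In SCNT Aph- embryos 1 was higher and 0 were lower (26.9% and 21% of all genes). The member Slc5a8 was detected on 3 fertilized Aph- arrays, 1 SCNT Aph- array and 1 cumulus array. Slc16a6, reported to carry taurine in mammals and ketone bodies in zebrafish, was 10.82, 10.97 and 11.41 in fertilized Aph+ embryos, 6.45, 6.13 and 7.72 in fertilized Aph- embryos and 6.54, 8.11 and 8.40 in SCNT Aph- embryos. It was undetected in the oocyte (4.26), in cumulus cells (4.61 and 4.57) and on the SCNT Aph+ array (4.33). The 3 fertilized Aph+ arrays stood above all others and the lone SCNT Aph+ array among the undetected ones. Slc16a6 rose with Aph after fertilization by 4.30 ± 0.52 (19.7-fold, adjusted p = 7.97e-05) and was at least 3.29-fold lower with Aph after SCNT (adjusted p = 0.00594), and both effects differed (adjusted p = 0.000294).

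**Figure D3:**
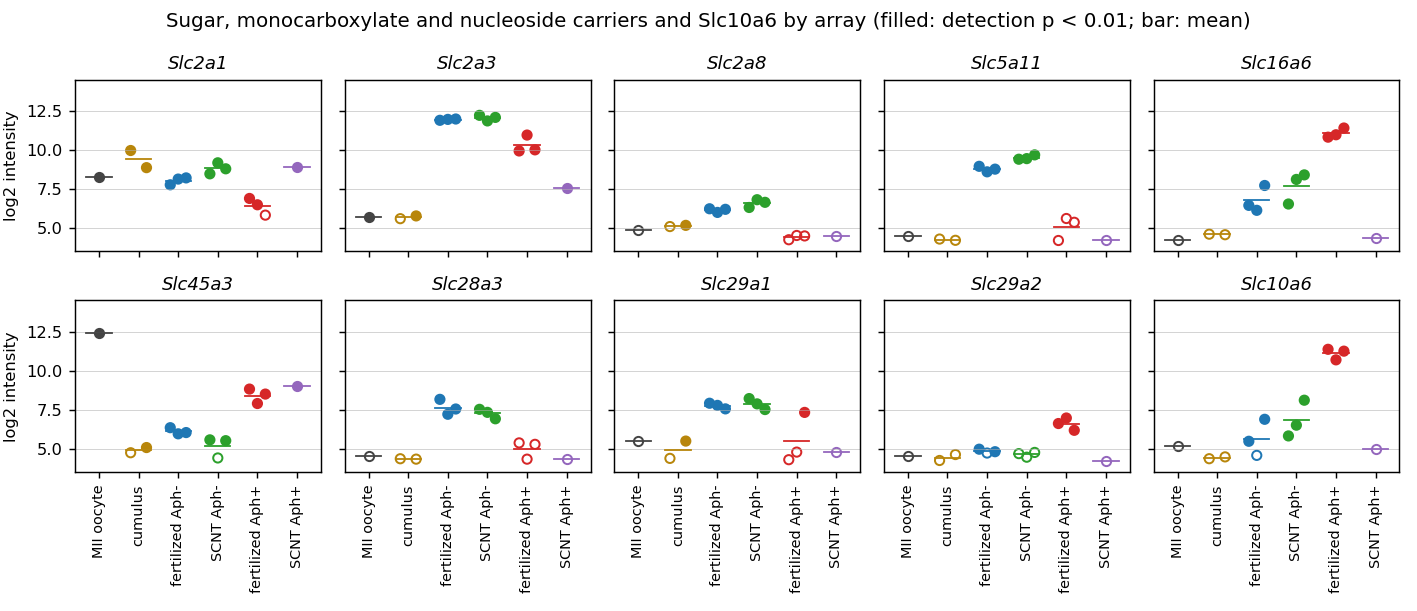
Log2 intensity (vertical axis) of 6 sugar or monocarboxylate carriers, 3 nucleoside carriers and Slc10a6 in the 6 groups; each point is 1 array, filled where the detection p was under 0.01, and the bar is the group mean. Slc2a3 lies at 11.86 to 12.22 in all 6 Aph- embryo arrays, and Slc16a6 and Slc10a6 peak at 10.69 to 11.41 in the fertilized Aph+ arrays.

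Among 29 amino acid carriers, 7 were higher and 7 lower than the oocyte after fertilization without Aph (26.7% and 20.8% of all genes). After SCNT without Aph, 5 were higher and 7 lower (26.9% and 21% of all genes). With Aph, 1 was higher and 9 lower than the oocyte after fertilization (21% and 22.2% of all genes), and 4 higher and 7 lower after SCNT (18.7% and 15.8%). The median amino acid carrier differed from the oocyte by -0.35 in fertilized Aph- embryos, where the median of all genes was 0.21.

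Several amino acid carriers of the oocyte were low in Aph- embryos. Slc7a11, the light chain of the cystine and glutamate exchanger, was 10.65 in the oocyte, 7.99 and 7.07 in cumulus cells, 7.86 in SCNT Aph+ embryos, and undetected on all 6 Aph- embryo arrays (4.21 to 4.45). On the fertilized Aph+ arrays it was an undetected 5.62, an undetected 4.47 and a detected 7.11, so that 1 array of this group alone stood in the range of the cumulus cells. Slc7a11 was at least 58.3-fold lower than the oocyte in fertilized Aph- embryos (adjusted p = 8.02e-05) and at least 47.4-fold lower in SCNT Aph- embryos (adjusted p = 6.93e-05). It rose with Aph after SCNT at least 6.87-fold (adjusted p = 0.00489); after fertilization the adjusted p was 0.0495, a call lost under 14 alternatives. Its partner Slc3a2, the heavy chain that several exchangers share, fell by 1.60 ± 0.48 in fertilized Aph- embryos (3.04-fold, adjusted p = 0.0188) and by 1.5 ± 0.48 in SCNT Aph- embryos (adjusted p = 0.0249), from 8.97 in the oocyte to 6.98 to 7.86 over these 6 arrays.

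Slc7a2, a carrier of cationic amino acids, was 8.43 in the oocyte and undetected elsewhere (4.30 to 4.84) but for 1 fertilized Aph+ array at 7.17. It was at least 12.6-fold lower in fertilized Aph- embryos (adjusted p = 0.00272) and at least 10.2-fold lower in SCNT Aph- embryos (adjusted p = 0.0032). Slc6a15, a sodium-coupled carrier of branched-chain amino acids and proline, was 8.69 in the oocyte, 5.97 and 5.91 in cumulus cells and 6.26, 6.82 and 6.42 in fertilized Aph+ embryos, and undetected with this probe in the other embryos (4.17 to 4.41), while its other member probe was detected on the SCNT Aph+ array. It was at least 15-fold lower than the oocyte in fertilized Aph- embryos (adjusted p = 3.14e-06) and rose with Aph after fertilization at least 3.30-fold (adjusted p = 1.8e-05). The other Slc6a15 probe was not called with Aph after fertilization (0.09, adjusted p = 0.751) and was called higher with Aph after SCNT (1.87, adjusted p = 0.000785). The 2 probes were called in opposite directions in the test of the difference between the Aph effects, so that the Aph values of this gene are uncertain.

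Slc6a9, the glycine carrier, was 10.58 in the oocyte, 9.78 and 9.95 in cumulus cells, 6.43, 6.46 and 5.71 in fertilized Aph-, 6.13, 6.55 and 5.58 in SCNT Aph-, 7.90, 8.48 and 7.98 in fertilized Aph+ and 9.23 in SCNT Aph+ embryos. The Aph+ arrays lay between the oocyte and the Aph- arrays with no overlap. Slc6a9 fell by 4.38 ± 0.45 from oocyte to fertilized Aph- embryos (20.8-fold, adjusted p = 3.16e-05) and by 4.50 ± 0.45 to SCNT Aph- embryos (adjusted p = 2.45e-05). Against the Aph- embryos it rose with Aph by 1.92 ± 0.32 after fertilization (adjusted p = 0.000663) and by 3.15 ± 0.45 after SCNT (adjusted p = 0.000557).

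Other carriers were gained by the Aph- embryos. Slc38a4, a sodium-coupled amino acid carrier of the placenta with an imprinted gene, was 10.11, 10.09 and 9.90 in fertilized Aph- and 10.72, 10.33 and 11.12 in SCNT Aph- embryos, 6.23 in SCNT Aph+ embryos and an undetected 4.40 in the oocyte. The fertilized Aph+ arrays split, with 7.95 on 1 and undetected values of 4.44 and 4.38 on the other two. It was at least 20.6-fold above the oocyte in fertilized Aph- embryos (adjusted p = 0.00179) and at least 33.1-fold in SCNT Aph- embryos (adjusted p = 0.000835), and it fell with Aph by 4.44 ± 0.78 after fertilization (adjusted p = 0.000957) and by 4.49 ± 1.11 after SCNT (adjusted p = 0.0111). Slc7a6, a light chain that exchanges arginine and glutamine, was 9.36, 8.92 and 8.98 in fertilized Aph-, 9.19, 8.24 and 8.05 in SCNT Aph- and 6.47 in SCNT Aph+ embryos, and undetected in the oocyte (4.38) and all 3 fertilized Aph+ arrays (4.33 to 4.68). Slc7a6 was at least 10.6-fold and 7.07-fold above the oocyte in the fertilized and SCNT Aph- embryos (adjusted p = 2.79e-05 and 5.92e-05). Its close relative Slc7a7 was also highest in the Aph- embryos, with 7.21 to 7.81 in fertilized Aph- and 6.33 to 6.81 in SCNT Aph-. Unlike Slc7a6, Slc7a7 had no detected value on the 4 Aph+ arrays (4.22 to 4.42). It rose over the oocyte at least 3.38-fold and 1.83-fold (adjusted p = 0.000153 and 0.0013). With Aph, both Slc7a7 probes were called lower after fertilization (-3.14 and -2.76). After SCNT the probe shown differed by -2.31 and the other by -0.69, which was not called.

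Slc1a1, a carrier of glutamate and cysteine, was 6.54 in the oocyte, 8.85, 9.26 and 8.91 in fertilized Aph-, 9.25, 7.77 and 8.33 in SCNT Aph-, 7.02, 6.56 and an undetected 5.03 in fertilized Aph+ embryos, and undetected in cumulus cells (4.24 and 4.22) and SCNT Aph+ embryos (4.30). It rose by 2.47 ± 0.71 over the oocyte in fertilized Aph- embryos (adjusted p = 0.0148). In SCNT Aph- embryos the difference was 1.91 ± 0.71 (adjusted p = 0.0453), a call lost under 11 alternatives. The other Slc1a1 probe was also called higher than the oocyte without Aph, by 2.03 after fertilization and by 1.74 after SCNT. With Aph after fertilization the probes differed. The other probe was called lower than the oocyte (-2.76), while the probe shown differed by -0.33 and was not called. Slc15a2, a proton-coupled peptide carrier, was 9.70 in the oocyte, 10.18, 10.67 and 10.16 in fertilized Aph- and 9.46, 8.78 and 7.65 in SCNT Aph- embryos, but undetected on all 4 Aph+ arrays (4.50 to 5.55). Slc15a2 was at least 22.2-fold lower with than without Aph after fertilization (adjusted p = 4.64e-06) and at least 6.36-fold lower after SCNT (adjusted p = 0.00358).

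Another set was high in cumulus cells and on the SCNT Aph+ array. Slc7a8, a neutral amino acid exchanger, was 9.73 and 9.03 in cumulus cells, 8.15 on the SCNT Aph+ array, 5.25 to 5.52 in fertilized Aph- embryos, 5.05 and undetected values of 4.56 and 4.91 in SCNT Aph- embryos, and undetected in the oocyte (4.41) and fertilized Aph+ embryos (4.20 to 5.66). Slc38a2, a sodium-coupled carrier of alanine and glutamine, was 9.83 and 8.56 in cumulus cells, 9.79 in SCNT Aph+ embryos, 6.45 in the oocyte and 5.67 to 6.85 on the other embryo arrays. In both genes the SCNT Aph+ array stood apart from all other embryo arrays, and 10 of the 12 cumulus markers were detected on it. The markers' part in the result was not tested. With Aph after SCNT, Slc7a8 rose by 3.31 ± 0.52 (9.94-fold, adjusted p = 0.000999) and Slc38a2 by 3.2 ± 0.56 (9.22-fold, adjusted p = 0.00168); after fertilization the differences were -0.61 and 0.09 and were not called. Other probes of both genes did not share these calls after SCNT. The other Slc7a8 probe differed by 1.14 (adjusted p = 0.161), and the other 2 of the 3 Slc38a2 probes by 0.95 each (adjusted p = 0.176 and 0.0724). Of these, 1 Slc38a2 probe was called higher after fertilization, by 1.34 (adjusted p = 0.00165). The Aph values of both genes are therefore uncertain. In cumulus cells against the oocyte, both Slc7a8 probes were called higher (4.98 and 3.52). Of the Slc38a2 probes, the one shown and another were called higher there (2.75 and 2.69), while the remaining probe differed by -0.71 and was not called.

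Slc7a5, the leucine exchanger light chain, was detected on all 13 arrays, at 10.34, 9.85 and 11.03 in fertilized Aph+ embryos and 7.97 to 9.59 elsewhere, and rose with Aph after fertilization by 1.94 ± 0.40 (3.83-fold, adjusted p = 0.00236). Slc1a4, the alanine, serine and cysteine exchanger, was an undetected 4.31 in the oocyte, 6.33 and 7.34 in cumulus cells, 6.06, 6.20 and 5.68 in fertilized Aph-, 6.86, 7.95 and 7.10 in SCNT Aph-, 6.67 in SCNT Aph+, and 5.68 and undetected values of 4.19 and 4.17 in fertilized Aph+ embryos. Slc1a4 was at least 3.09-fold above the oocyte in SCNT Aph- embryos (adjusted p = 0.00331).

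The promoters of Slc7a11 and Slc1a4 are shown because both hold the core of the amino acid response element, TGATGNAA, a motif that Atf4 binds when amino acids are short, and because the genes were called in opposite directions when SCNT Aph- embryos were set against the oocyte. For Slc1a4 after fertilization without Aph that difference was 1.67 ± 0.66 (adjusted p = 0.0574) and was not called. Of the 169 members, 133 matched a RefSeq promoter (250 bases before to 50 after a start site, build GRCm38.p6). The motif, searched on both strands, stood in the promoters of 3 of 23 matched amino acid carriers (these and Slc7a7), of 6 of 133 members and of 3.08% of 7010 tested genes with a promoter, 4.51% of all 27025 genes with one. The other motifs searched in the same promoters were the pair of metal response element cores given with Slc30a1 and the hypoxia response element core ACGTG, which 43 of 133 members and 29.1% of the tested genes held. Capitals mark the matches, which begin 66 and 47 bases before the Slc7a11 start and 4 bases before the Slc1a4 start.
Slc7a11, chr3:50443564-50443863, minus strand: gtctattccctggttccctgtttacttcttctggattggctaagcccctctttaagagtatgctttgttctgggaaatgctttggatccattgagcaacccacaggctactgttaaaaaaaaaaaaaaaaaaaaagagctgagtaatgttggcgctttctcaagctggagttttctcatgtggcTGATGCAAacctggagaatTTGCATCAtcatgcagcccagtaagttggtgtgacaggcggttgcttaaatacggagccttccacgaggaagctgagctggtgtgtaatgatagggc
Slc1a4, chr11:20332664-20332963, minus strand: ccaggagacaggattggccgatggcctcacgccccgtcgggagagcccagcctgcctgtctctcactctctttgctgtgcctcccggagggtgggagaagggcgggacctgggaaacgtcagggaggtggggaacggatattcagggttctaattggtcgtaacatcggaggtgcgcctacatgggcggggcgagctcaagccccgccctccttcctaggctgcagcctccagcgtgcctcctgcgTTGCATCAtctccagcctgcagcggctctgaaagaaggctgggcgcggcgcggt
The 2 Slc7a11 matches lie on opposite strands. A match is a run of letters and was not tested for binding.

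**Figure D4:**
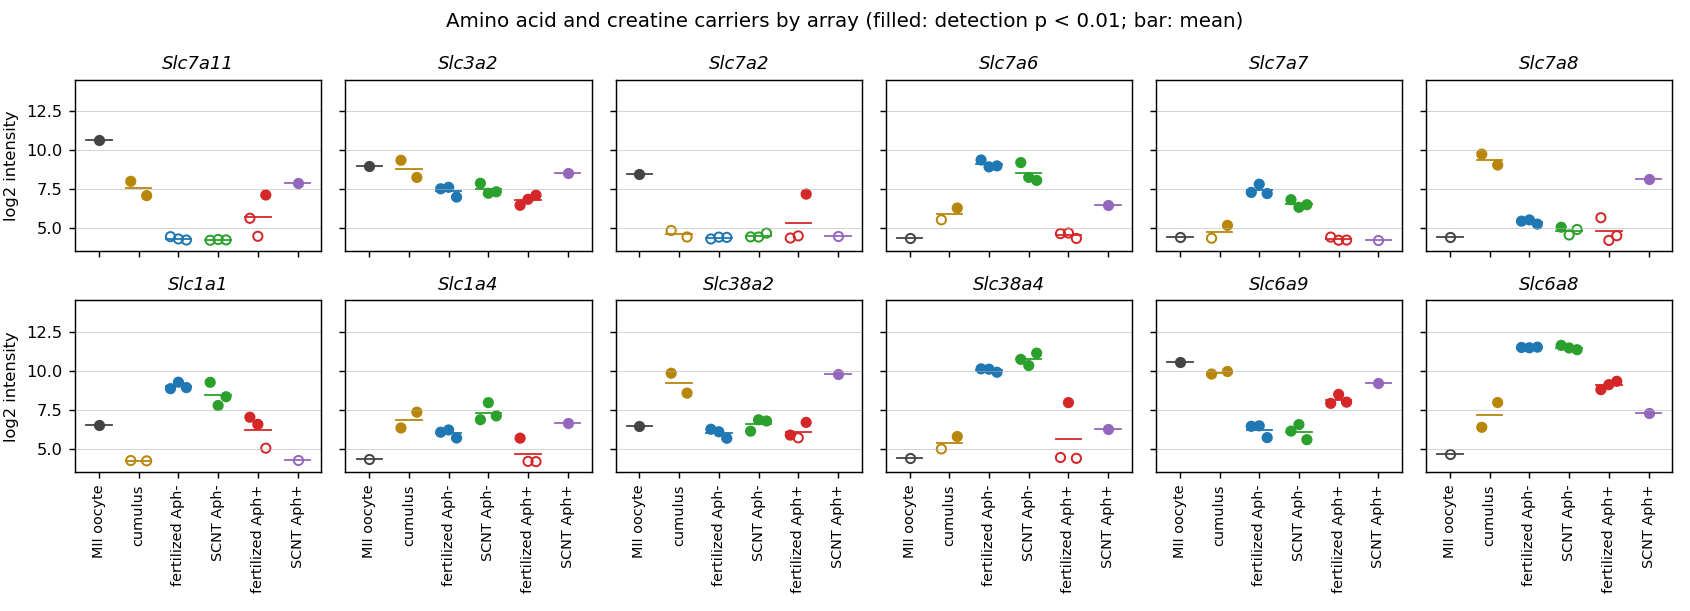
Log2 intensity (vertical axis) of 11 amino acid carriers or chains and the creatine carrier Slc6a8 in the 6 groups; each point is 1 array, filled where the detection p was under 0.01, and the bar is the group mean. Slc7a11 is undetected on all 6 Aph- embryo arrays, and Slc7a8 and Slc38a2 on the SCNT Aph+ array lie near the cumulus arrays.

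Of 8 carriers of osmolytes, creatine and neurotransmitters, 3 were higher and 2 lower than the oocyte in both kinds of Aph- embryo. The shares of all genes were 26.7% and 20.8% after fertilization and 26.9% and 21% after SCNT. Slc6a8, the creatine carrier, was an undetected 4.67 in the oocyte, 6.37 and 7.96 in cumulus cells, 11.49, 11.47 and 11.51 in fertilized Aph-, 11.62, 11.45 and 11.34 in SCNT Aph-, 8.78, 9.10 and 9.32 in fertilized Aph+ and 7.31 in SCNT Aph+ embryos. The Aph- arrays were highest and the Aph+ arrays lay between them and the oocyte. Slc6a8 was at least 56.2-fold above the oocyte in fertilized Aph- embryos (adjusted p = 4.57e-06) and at least 10.5-fold in fertilized Aph+ embryos (adjusted p = 6.09e-05), and it fell with Aph by 2.42 ± 0.36 after fertilization (adjusted p = 0.000306) and by 4.16 ± 0.51 after SCNT (adjusted p = 0.000214).

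Slc6a13, a carrier of GABA and taurine, was detected on the 6 Aph- embryo arrays alone, at 8.91 to 9.42, against 4.25 to 4.72 on the other 7. Slc6a13 was at least 10.6-fold and 11.3-fold above the oocyte (adjusted p = 2.43e-06 and 2.05e-06). Slc6a6, the taurine carrier, was 10.87 in the oocyte, 11.91 and 11.34 in cumulus cells, 9.69 to 10.16 on the Aph- embryo arrays, 11.99 in SCNT Aph+ embryos, and 9.29, 8.17 and an undetected 6.15 in fertilized Aph+ embryos. It fell with Aph after fertilization by 2.07 ± 0.61 (adjusted p = 0.0173), with a wide spread over the 3 arrays. Slc18a2, which loads monoamines into vesicles, was 9.42 in the oocyte, 6.29 on 1 fertilized Aph+ array and undetected on the other 11 (4.18 to 4.91), and was at least 25-fold lower in fertilized Aph- embryos (adjusted p = 8.82e-05). Slc17a6, a vesicular glutamate carrier, was detected in the oocyte (8.34), in SCNT Aph+ embryos (8.98) and on 1 SCNT Aph- array (5.72). It was undetected in cumulus cells (4.22 and 4.27). Slc24a3, a potassium-dependent sodium and calcium exchanger, was likewise high in the oocyte (9.33) and in SCNT Aph+ embryos (9.22). Unlike Slc17a6, it was also detected on fertilized arrays. It was 8.25, 6.0 and an undetected 4.24 in fertilized Aph+ embryos. In the Aph- embryos and cumulus cells it was 4.18 to 4.91, detected there on 2 fertilized Aph- arrays alone. It rose with Aph after SCNT at least 17.6-fold (adjusted p = 0.0055).

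Of the 5 nucleoside carriers, 1 was higher and 0 were lower than the oocyte without Aph, after either origin. The shares of all genes were 26.7% and 20.8% after fertilization and 26.9% and 21% after SCNT. Slc28a3, a carrier that concentrates nucleosides with sodium, was detected on the 6 Aph- embryo arrays alone, at 8.16, 7.21 and 7.54 after fertilization and 7.52, 7.33 and 6.92 after SCNT. Slc28a3 was at least 3.9-fold and 2.99-fold above the oocyte (adjusted p = 0.000466 and 0.00101), and at least 3.42-fold and 2.44-fold lower with Aph (adjusted p = 0.000142 and 0.00146). Slc29a1, an equilibrative carrier, was 7.91, 7.77 and 7.55 in fertilized Aph- and 8.21, 7.87 and 7.51 in SCNT Aph- embryos, undetected in the oocyte (5.50) and SCNT Aph+ embryos (4.81), and on the fertilized Aph+ arrays undetected on 2 (4.29 and 4.78) and 7.32 on the other. It fell with Aph by 2.28 ± 0.66 after fertilization (adjusted p = 0.0152) and was at least 3.73-fold lower after SCNT (adjusted p = 0.0296). Slc29a2, its relative, went the other way after fertilization only, with 6.61, 6.97 and 6.18 in fertilized Aph+ embryos and 4.19 to 4.97 on the other arrays. Of those other arrays, 2 fertilized Aph- arrays detected it. It rose with Aph after fertilization by 1.75 ± 0.26 (3.37-fold, adjusted p = 0.000281). After SCNT its Aph difference was -0.45, and no SCNT array detected it. Slc29a3, which works in lysosomes, was detected on all 13 arrays, at 5.90 to 7.67, and was called in no comparison. Slc29a4 was detected on the 6 Aph- embryo arrays (5.38 to 6.26) and on 1 fertilized Aph+ array (6.23) and was called in no comparison either.

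Of 23 carriers of inorganic ions, 3 were higher and 5 lower than the oocyte after fertilization without Aph (26.7% and 20.8% of all genes). After SCNT without Aph, 6 were higher and 5 lower (26.9% and 21% of all genes). Slc34a2, a sodium-coupled phosphate carrier, was 8.78, 7.97 and 8.10 in fertilized Aph-, 8.84, 8.61 and 8.67 in SCNT Aph- and 9.32, 9.45 and 9.22 in fertilized Aph+ embryos, and undetected in the oocyte (4.31) and SCNT Aph+ embryos (5.04). Over the oocyte it rose at least 6.12-fold, 8.19-fold and 12.6-fold in these 3 groups (adjusted p = 1.73e-05, 8.97e-06 and 6.53e-06). Slc4a2, a chloride and bicarbonate exchanger, was 6.79 to 7.48 on the 6 Aph- embryo arrays, 8.13 and 7.34 in cumulus cells and 6.46 in the oocyte, and undetected on all 4 Aph+ arrays (4.26 to 4.98). Slc4a2 was at least 2.52-fold lower with Aph after fertilization (adjusted p = 2.09e-05) and at least 2.25-fold lower after SCNT (adjusted p = 0.00216). Slc12a2, the sodium, potassium and chloride cotransporter, was detected on all 13 arrays (8.13 to 10.87) and, with this probe, called in no comparison. Its other member probe was called lower than the oocyte in fertilized Aph- (-2.12, adjusted p = 0.0053), SCNT Aph- (-1.60, adjusted p = 0.0223), SCNT Aph+ (-2.96, adjusted p = 0.00457) and cumulus samples (-2.06, adjusted p = 0.00983), and in the test of the difference between the Aph effects (-2.17, adjusted p = 0.0234). Slc12a9, an orphan of the same family, fell from 9.08 in the oocyte to 5.04 to 5.49 in fertilized Aph- embryos, by 3.76 ± 0.44 (13.6-fold, adjusted p = 6.45e-05). Slc12a8 was 9.75 and 10.08 in cumulus cells, 9.40 in SCNT Aph+, 8.48, 7.61 and 6.41 in fertilized Aph+, 6.99 in the oocyte and 4.62 to 5.63 in the Aph- embryos, and rose with Aph by 2.76 ± 0.45 after fertilization (adjusted p = 0.000597) and by 4.20 ± 0.64 after SCNT (adjusted p = 0.000782).

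Slc4a8, a sodium-driven bicarbonate exchanger, was 10.36 in SCNT Aph+ embryos, 8.73, 7.33 and 8.74 in fertilized Aph+, 7.68, 9.02 and 8.40 in SCNT Aph-, 5.48, 6.48 and 6.34 in fertilized Aph- embryos, 6.91 in the oocyte and 8.94 and 8.08 in cumulus cells. It rose with Aph after fertilization by 2.17 ± 0.49 (adjusted p = 0.00414). Slc4a1, the anion exchanger of red blood cells, was detected on 2 fertilized Aph+ arrays (8.29 and 7.78) and nowhere else (4.23 to 4.81). The same 2 arrays detected the haemoglobin gene Hba-a1, at 7.54 and 7.12, against an undetected 4.42 on the other fertilized Aph+ array, while Alas2 was undetected on all 3, and Hba-a1 was also detected in cumulus cells (6.34 and 6.84), on the 3 SCNT Aph- arrays (5.13, 5.81 and 6.09) and on 1 fertilized Aph- array (4.96), where Slc4a1 was not. Of 5 blood markers, 3, 2 and 2 were detected on the fertilized Aph+ arrays, 2 on the SCNT Aph+ array, 3 and 4 on the cumulus arrays and 0 or 1 on each other array. Their summed log2 level was 29.3 to 33.8 on the fertilized Aph+ arrays, 31.1 on the SCNT Aph+ array, 33.6 and 34.8 on the cumulus arrays and 21.5 to 24.01 on the others. The part of blood cell RNA in the Slc4a1 value was not tested.

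Metal ion carriers, 18 in all, gave 6 higher and 6 lower than the oocyte after fertilization without Aph (26.7% and 20.8% of all genes). After SCNT without Aph they gave 5 higher and 6 lower (26.9% and 21% of all genes). Slc39a4, a zinc importer, was 10.41, 10.70 and 10.71 in fertilized Aph-, 11.53, 11.52 and 11.44 in SCNT Aph- and 11.24, 11.15 and 11.50 in fertilized Aph+ embryos, but undetected in the oocyte (5.32), in cumulus cells (4.30 and 4.59) and in SCNT Aph+ embryos (5.19). All 9 arrays of the 3 bright groups lay above 10, and the 4 arrays of the other groups were undetected. Slc39a4 rose over the oocyte at least 30.6-fold, 56.6-fold and 49.3-fold in the 3 groups (adjusted p = 1.87e-06, 1.17e-06 and 1.4e-06). With Aph after SCNT it was at least 46.2-fold lower (adjusted p = 7.17e-06), while the Aph difference after fertilization was 0.69 and was not called. Slc39a10, another zinc importer, had the opposite order, with 10.11 in the oocyte, 7.81 and 7.04 in cumulus cells, 7.52 in SCNT Aph+ embryos and 4.24 to 5.50 on the other 9 embryo arrays. It fell by 4.71 ± 0.44 from oocyte to fertilized Aph- embryos (26.1-fold, adjusted p = 1.77e-05) and by 5.50 ± 0.44 to SCNT Aph- embryos (adjusted p = 6.6e-06), and rose with Aph after SCNT by 2.92 ± 0.44 (adjusted p = 0.000735).

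Slc30a1, the zinc exporter of the cell surface, was 8.08 in the oocyte and 7.43 to 9.26 on the 9 embryo arrays other than SCNT Aph+, and undetected in cumulus cells (4.60 and 4.51) and SCNT Aph+ embryos (4.43). Slc30a1 was at least 3.82-fold lower with Aph after SCNT (adjusted p = 0.000945). Its promoter is shown because Mtf1, the zinc-sensing factor, is known to act on this gene in mice through metal response elements. The cores TGCGCNC and TGCACNC were searched on both strands and stand in the promoters of 29.9% and 15% of the tested genes. Capitals mark the 2 matches, which begin 43 bases before and 31 bases after the start site.
Slc30a1, chr1:191906531-191906830, plus strand: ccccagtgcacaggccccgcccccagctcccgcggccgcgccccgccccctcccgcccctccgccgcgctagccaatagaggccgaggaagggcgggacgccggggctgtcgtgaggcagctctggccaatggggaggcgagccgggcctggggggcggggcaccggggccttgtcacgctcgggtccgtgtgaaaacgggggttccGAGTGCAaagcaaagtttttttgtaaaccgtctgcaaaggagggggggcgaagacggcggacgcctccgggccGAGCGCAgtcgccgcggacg
Of the 13 matched metal ion carriers, 4 held the first core and 5 the second.

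Slc40a1, the iron exporter, was 12.12 and 13.10 in cumulus cells, 11.90 in SCNT Aph+ embryos, 8.62 in the oocyte, 10.42, 10.27 and 9.34 in fertilized Aph-, 9.38, 9.51 and 8.61 in SCNT Aph- and 9.43, 7.51 and 8.03 in fertilized Aph+ embryos. Slc40a1 rose with Aph after SCNT by 2.73 ± 0.73 (adjusted p = 0.0166) and fell after fertilization by 1.69 ± 0.52 (adjusted p = 0.02), where the 2 groups overlapped. Slc11a2, the iron importer, fell from 9.47 in the oocyte to 5.99 to 6.35 in fertilized Aph- embryos, by 3.24 ± 0.78 (adjusted p = 0.00597), and to an undetected 4.68 in SCNT Aph+ embryos. Slc11a1, its relative of macrophages, was detected on all 13 arrays, at 11.37, 11.02 and 10.85 in fertilized Aph+, 10.59 in SCNT Aph+, 10.41 and 10.52 in cumulus cells and 7.98 to 9.06 elsewhere. Slc11a1 rose with Aph by 3.07 ± 0.24 after fertilization (8.40-fold, adjusted p = 6.31e-06) and by 1.78 ± 0.35 after SCNT (adjusted p = 0.00324), though its other member probe was called neither after fertilization (1.19, adjusted p = 0.17) nor after SCNT (0.79, adjusted p = 0.585). Slc30a6, a zinc carrier of the Golgi, was an undetected 5.13 in the oocyte and 7.74 to 9.43 on all other arrays. It rose over the oocyte at least 8.57-fold in fertilized Aph- embryos (adjusted p = 1.31e-05) and at least 4.18-fold in SCNT Aph+ embryos (adjusted p = 0.000977).

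Of 26 mitochondrial carriers, 6 were higher and 5 lower than the oocyte after fertilization without Aph (26.7% and 20.8% of all genes). After SCNT without Aph, 6 were higher and 6 lower (26.9% and 21% of all genes). Against the Aph- embryos, with Aph, 7 were higher and 8 lower after fertilization (18.9% and 24.8% of all genes) and 1 higher and 6 lower after SCNT (14.3% and 16.7%). Slc25a5, the ADP and ATP exchanger of proliferating cells, was 10.77 in the oocyte, 12.69 and 12.18 in cumulus cells, 12.72, 12.80 and 12.73 in fertilized Aph-, 12.36, 12.23 and 12.16 in SCNT Aph-, 10.46, 10.56 and 8.86 in fertilized Aph+ and 11.57 in SCNT Aph+ embryos. The fertilized Aph+ arrays were below all others. Slc25a5 rose by 1.98 ± 0.57 over the oocyte in fertilized Aph- embryos (3.95-fold, adjusted p = 0.0149) and fell with Aph after fertilization by 2.79 ± 0.40 (6.92-fold, adjusted p = 0.000264). Slc25a3, the phosphate carrier, was 8.14 in the oocyte, 9.15, 10.49 and 10.09 in fertilized Aph-, 9.08, 8.65 and 9.31 in SCNT Aph-, 8.38, 9.26 and 8.17 in fertilized Aph+ and 10.61 in SCNT Aph+ embryos. It fell with Aph after fertilization by 1.31 ± 0.43 (adjusted p = 0.0284), with overlapping groups. The other Slc25a3 probe was called lower there too (-1.56). Against the oocyte, that probe was called higher in SCNT Aph- (4.12), fertilized Aph+ (2.86) and cumulus samples (3.34). The probe shown was not called in these comparisons (0.88, 0.47 and 1.65). With Aph after SCNT the probe shown differed by 1.60 and the other by -0.33, and neither was called.

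Slc25a20, which exchanges carnitine and acylcarnitine for fatty acid oxidation, was 6.62 in the oocyte, 9.20, 9.39 and 9.20 in fertilized Aph-, 9.44, 9.65 and 9.89 in SCNT Aph- and 8.82, 10.09 and 9.87 in fertilized Aph+ embryos. It rose by 2.65 ± 0.55, 3.04 ± 0.55 and 2.98 ± 0.55 in these 3 groups (adjusted p = 0.0026, 0.00107 and 0.00132). Slc25a15, the ornithine carrier, went down from 9.89 in the oocyte to 5.58 to 5.80 in fertilized Aph- and 4.41 to 5.04 in SCNT Aph- embryos, with 6.18, 7.98 and 7.2 in fertilized Aph+ embryos and an undetected 4.33 in SCNT Aph+ embryos. It fell by 4.21 ± 0.56 in fertilized Aph- embryos (18.5-fold, adjusted p = 0.000156) and was at least 15.1-fold lower in SCNT Aph+ embryos (adjusted p = 0.000356). Slc25a10, the dicarboxylate carrier, and Slc25a13, an aspartate and glutamate carrier, were both lost from the fertilized Aph+ arrays, where all values were undetected (4.19 to 4.36). They were at least 3.01-fold and 1.59-fold lower with Aph there (adjusted p = 1.47e-05 and 0.000182), and Slc25a10 was detected at 6.42 and Slc25a13 undetected at 4.22 on the SCNT Aph+ array.

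Slc25a28, a mitochondrial iron importer, was 6.90 in the oocyte, 9.11 to 9.27 in fertilized Aph-, 9.59 to 9.95 in SCNT Aph-, 11.40, 11.68 and 11.66 in fertilized Aph+ and 10.17 in SCNT Aph+ embryos, and 11.07 and 11.02 in cumulus cells. Slc25a28 rose with Aph after fertilization by 2.39 ± 0.21 (5.23-fold, adjusted p = 1.14e-05), and the SCNT difference of 0.39 was not called. Slc25a25, a calcium-dependent carrier of ATP-Mg and phosphate, was 8.78, 10.07 and 8.41 in fertilized Aph+ embryos, 6.34 to 7.15 in the Aph- embryos, 7.09 in the oocyte and an undetected 4.29 in SCNT Aph+ embryos. Slc25a25 rose with Aph after fertilization by 2.67 ± 0.44 (adjusted p = 0.000607) and was at least 1.92-fold lower with Aph after SCNT (adjusted p = 0.00915).

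Among 14 vitamin and choline carriers, 6 were higher and 3 lower than the oocyte in fertilized Aph- embryos (26.7% and 20.8% of all genes). Slc5a6, the sodium-coupled carrier of biotin and pantothenate, was 6.31 in the oocyte, 8.27 and 7.70 in cumulus cells, 11.26, 11.15 and 11.63 in fertilized Aph-, 11.49, 11.48 and 11.71 in SCNT Aph-, 11.10, 11.31 and 11.94 in fertilized Aph+ and 7.83 in SCNT Aph+ embryos. The 3 fertilized Aph+ arrays overlapped with the Aph- arrays, and the SCNT Aph+ array lay with the cumulus arrays. Slc5a6 rose by 5.04 ± 0.40, 5.25 ± 0.40 and 5.13 ± 0.40 over the oocyte in the 3 bright groups (adjusted p = 6.92e-06, 5.25e-06 and 7.43e-06). Slc52a3, a riboflavin carrier, was 9.11, 8.73 and 8.82 in fertilized Aph- and 8.40, 7.99 and 8.01 in SCNT Aph- embryos, 6.49 on 1 fertilized Aph+ array and undetected on the others (4.48 to 5.28). It fell with Aph after fertilization by 3.46 ± 0.42 (adjusted p = 8.17e-05). Slc23a2, a vitamin C carrier, was 9.33 in the oocyte, 9.26 and 8.15 in cumulus cells and 8.36 in SCNT Aph+ embryos, and undetected on all Aph- embryo arrays (4.35 to 4.68).

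In other classes, 2 genes peaked in the fertilized Aph+ embryos. Slc27a5, a bile acid and fatty acid CoA ligase of the liver counted with the fatty acid carriers, was 8.56, 9.81 and 8.70 there and undetected on the other 10 arrays (4.18 to 4.31), at least 19-fold higher than in fertilized Aph- embryos. Slc27a5 passed the rule only through the fertilized Aph+ arrays, so its call gives that pattern no separate support. Slc10a6, a carrier of steroid sulphates, was 11.37, 10.69 and 11.25 in fertilized Aph+, 5.47, an undetected 4.57 and 6.88 in fertilized Aph-, 5.82, 6.51 and 8.11 in SCNT Aph- embryos, and undetected in the oocyte, cumulus and SCNT Aph+ arrays (4.36 to 5.16). Slc10a6 rose with Aph after fertilization by 5.46 ± 0.63 (44-fold, adjusted p = 6.22e-05). Slc22a5, the carnitine importer of the cell surface, fell there from 10.44, 10.01 and 10.52 to 6.65, 7.82 and 7.06, by 3.15 ± 0.31 (8.86-fold, adjusted p = 2.43e-05), although 1 of its 3 probes did not share the call (0.08, adjusted p = 0.906). The scaffold protein gene Slc9a3r1 was 9.69 to 9.88 in fertilized Aph-, 9.04 to 9.97 in SCNT Aph- and 5.82 to 7.0 on the Aph+ arrays, against an undetected 4.84 in the oocyte.

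The 5 nucleotide sugar carriers, which supply the Golgi with activated sugars, gave 0 higher and 3 lower than the oocyte after fertilization without Aph (26.7% and 20.8% of all genes). Slc35a1, the CMP-sialic acid carrier, was 10.56 in the oocyte, 9.65 and 10.01 in cumulus cells, 9.20 on the SCNT Aph+ array and 5.10 to 8.26 on the other embryo arrays, and fell by 2.48 ± 0.80 in fertilized Aph- embryos (5.58-fold, adjusted p = 0.0248). Slc35a3 was detected in the oocyte (6.55) and on 1 cumulus array (4.88) and on no embryo array (4.23 to 4.70).

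Of 7 organic ion carriers, 0 were higher and 4 lower with Aph after either origin, beside 24.8% of all genes lower after fertilization and 16.7% after SCNT. Slc22a23, an orphan of that family, was 9.24 in the oocyte, 7.13 to 7.50 in fertilized Aph- and 6.63 to 7.01 in SCNT Aph- embryos, and with Aph it was detected on 1 of 4 arrays, at 6.16. Its Aph difference after fertilization was -2.24 ± 0.45 (adjusted p = 0.00217). Slc66a1, a lysosomal carrier of cationic amino acids, was detected on the 6 Aph- embryo arrays (6.65 to 7.69) and on no Aph+ array (4.54 to 5.53), at least 1.92-fold and 2.83-fold lower with Aph (adjusted p = 0.000531 and 0.00278).

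SCNT and fertilized embryos without Aph differed in 3 members of 169. Slc6a12, a betaine and GABA carrier, was 6.53, 7.07 and 7.18 after SCNT and 5.21, 5.44 and 5.41 after fertilization, and rose by 1.57 ± 0.24 (2.97-fold, adjusted p = 0.0186). Slc47a1, which extrudes organic cations, was 6.03, 6.34 and 6.07 after fertilization and undetected after SCNT (4.29 to 4.55), at least 2.09-fold lower (adjusted p = 0.00441). Slc46a3, a lysosomal carrier, was 6.14, 5.81 and 5.89 after fertilization and undetected after SCNT (4.42 to 4.77), at least 1.83-fold lower. Detected in no group but fertilized Aph-, Slc46a3 passed the rule only through the arrays where it was high. Its call therefore gives that pattern no separate support. In all 3 genes the groups did not overlap. The calls of Slc46a3 and Slc6a12 were lost under 10 and 8 alternatives. Slc7a3, a cationic amino acid carrier, was 6.41, 6.37 and 5.91 after fertilization and undetected after SCNT (4.26 to 4.34) and this difference was not called.

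The 2 Aph differences, after fertilization and after SCNT, rest on separate arrays. Over the 169 members they correlated at r = 0.392, across genes, which are not independent replicates, and had the same sign in 102. Members called higher in both numbered 11 and those called lower in both 25, while 7 were called in opposite directions, 44 after fertilization alone and 22 after SCNT alone. Over all 8543 genes r was 0.325 and the sign was the same in 59.4%, beside 60.4% of members. Of all genes, 4.74% were higher in both, 7.68% lower in both (members 6.51% and 14.8%), 3.42% called in opposite directions, 27.8% after fertilization alone and 15.1% after SCNT alone, and no test was made between the members and all genes. The test of the difference itself called 46 members, 19 with a higher and 27 with a lower difference after SCNT, beside 15.4% and 14.1% of all genes. Scaled to the 75th percentile it called 4 and 17. These 46 calls rest on the single SCNT Aph+ array, whose cumulus markers and low intensity are given above and whose part in the result was not tested. The 3 most negative differences among called members were those of Slc16a6 (-7.65 ± 0.90), Slc10a6 (-7.28 ± 1.1) and Slc39a4 (-6.99 ± 0.37), and the 2 most positive those of Slc40a1 (4.42 ± 0.89) and Slc17a6 (4.38 ± 0.61) (adjusted p = 0.000294, 0.00105, 1.01e-05, 0.0047 and 0.000716).

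**Figure D5:**
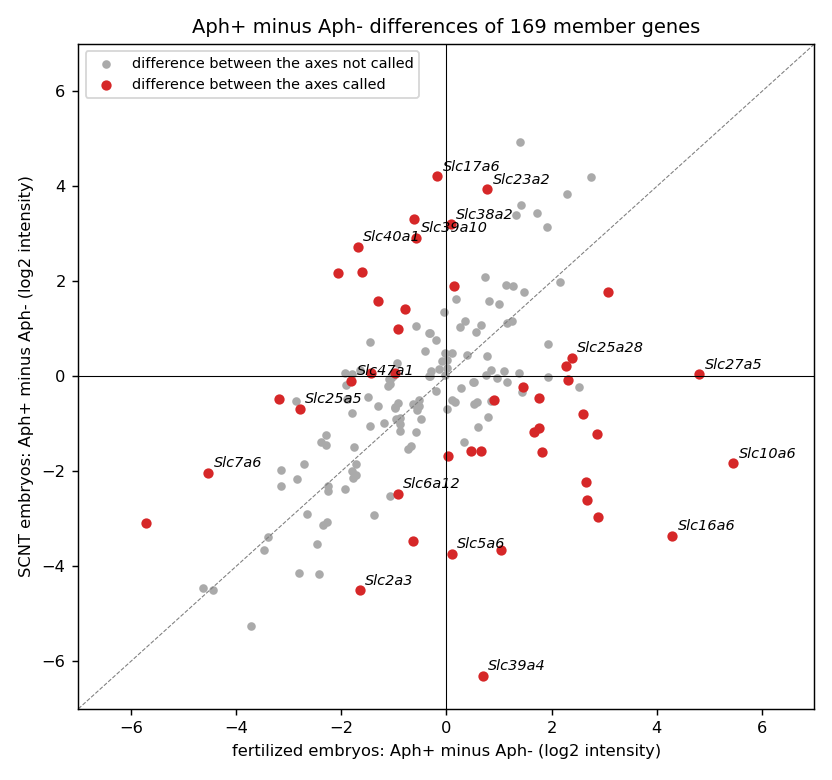
Difference between Aph+ and Aph- embryos (log2 intensity) of the 169 members after fertilization (horizontal axis) and after SCNT (vertical axis); each point is 1 gene, red where the 2 differences were called unlike, and the dashed line marks equal differences. Slc16a6 and Slc10a6 lie far to the right and below 0, and Slc38a2, Slc23a2 and Slc17a6 near 0 on the horizontal axis and above 3 on the vertical.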

How the data were processed

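RNA of embryo pools, oocytes and cumulus cells was amplified and hybridised to Illumina mouse BeadChips. The authors deposited probe intensities as exported by BeadStudio 3.2, not normalized, with a detection p-value per probe and array. They also deposited a table of log2 values, for which the submitters' notes name RMA and lumi. The scale of that table was taken as log2 from its values, its median is 1.35, and its exact centring remains unknown, so it served as an alternative only. The labels and the methods name different amplification kits and chip versions, and which applies was not settled. One intensity column, that of the SCNT Aph+ array, was assigned through its group, which holds 1 sample.

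Intensities were corrected and quantile normalized with neqc (offset 16, with the negative controls estimated through the detection p-values) in limma 3.58.1 under R 4.3.3. Probes with a symbol, detected at p under 0.01 on at least 2 arrays, were kept (10850 probes), and each of 8543 genes was represented by its probe of highest mean. A limma model of 6 groups with 7 residual degrees of freedom and eBayes gave all tests, with Benjamini-Hochberg adjustment over the 8543 genes of a comparison. The 3 sample types of a group were treated as replicates. The paper states that embryo samples were collected in triplicate, while SCNT Aph+ has 1 array here. Whether the 3 sample types of a group are those replicates is not stated. The p-values therefore reflect array-to-array spread that may be technical. The number of arrays limits the precision. Only the limma fit and its calls were tested on simulated data, as log2 values with 1 spread per gene shared by all groups. Background correction, normalization, the detection filter and unequal spreads between groups were not part of that test.

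Genes were assigned to transport classes by family. Members, classes, gene lists and tests were chosen with earlier results of these data known. Named genes are the members among textbook carriers, the 4 largest rises and 4 largest falls per comparison among called members whose groups do not overlap, the called member with the largest difference per class and comparison, and members with probes called in opposite directions. Slc2a13, Slc5a4b, Slc5a8, Slc29a3, Slc29a4, Slc30a1 and Slc4a1, the 4 members that carry nothing, and the promoters shown were chosen after their values were seen. Of the members, 30 genes had more than 1 member probe. Promoters are from the RefSeq table of build GRCm38.p6. Alternatives covered background correction, scaling, the authors' log2 values, detection filters, probe summary, eBayes settings, the sample type as a block, only the groups compared, and leaving out each array other than the lone MII oocyte and SCNT Aph+ arrays.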

Additional observations from a re-analysis of the deposited data

Results flagged for a closer look

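The Aph difference (Aph+ minus Aph-, log2) differed between SCNT and fertilized embryos, by the test of that difference in the limma model, in 30 of the named members, and the values here are the SCNT difference minus the fertilized difference. All 30 rest on the 1 SCNT Aph+ array, on which 10 of 12 cumulus markers were detected, and the part of those markers in the values was not tested. For 4 of them another member probe was not called in this test: Slc7a8 (1.34, adjusted p = 0.183), Slc38a2 (1.54 and -0.39, adjusted p = 0.0814 and 0.557), Slc25a3 (1.24, adjusted p = 0.172) and Slc11a1 (-0.40, adjusted p = 0.833). No group has enough arrays for a test of single outlying arrays.

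Negative values come first. Among sugar, monocarboxylate and nucleoside carriers these were Slc16a6 (-7.65), Slc2a3 (-2.86) and Slc29a2 (-2.20). Among carriers of metal and other ions they were Slc39a4 (-6.99), Slc34a2 (-4.71), Slc30a6 (-2.05) and Slc11a1 (-1.29). Slc25a25 (-5.28) and Slc25a28 (-1.99) are mitochondrial carriers, and Slc6a15 (-2.06), whose 2 probes were called in opposite directions, and Slc6a12 (-1.55) belong to the Slc6 family. The others were Slc10a6 (-7.28), Slc27a5 (-4.75), Slc23a3 (-4.07), Slc5a6 (-3.83) and Slc66a2 (-2.84). Of these, Slc27a5 passed the rule only through the fertilized Aph+ arrays, so its value follows in part from its selection.

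The remaining values were positive. Slc40a1 (4.42), Slc17a6 (4.38), Slc6a6 (4.24), Slc7a8 (3.93), Slc35a1 (3.81), Slc39a10 (3.51), Slc23a2 (3.17), Slc38a2 (3.12) and Slc25a3 (2.91) were above the SCNT Aph- mean on the SCNT Aph+ array. Slc25a10 (2.71), Slc15a2 (2.64), Slc7a6 (2.51) and Slc25a5 (2.11) were below the Aph- mean after both origins, further below after fertilization. For Slc47a1 (1.73) the Aph difference was -1.81 after fertilization and -0.09 after SCNT, where no array with or without Aph detected it.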

How the results depend on the processing

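Of 228 named results, 137 kept their call under every alternative run, 91 lost it under at least 1 and 33 under at least 3, and 0 reversed. The calls lost most often were those of Slc7a11 in fertilized Aph+ against Aph- embryos (14 alternatives) and of Slc25a20 in cumulus cells against the oocyte (12). Counts of called members moved by over 1.5 times in these cases. Fertilized Aph+ against the oocyte gave 25 in a model of the compared groups only. Cumulus against the oocyte gave 42 without background correction and 41 in a model of the compared groups only. Without background correction, Aph+ against Aph- gave 50 after fertilization and 43 after SCNT. SCNT Aph- against fertilized Aph- gave 0 without background correction, 6 scaled to the 75th percentile, 1 with the sample type as a block, 9 in a model of the compared groups only and 8 with no fertilized Aph+ arrays in the model, the last chosen after seeing the data. The difference between the Aph effects gave 21 scaled to the 75th percentile. The causes were not tested. Each array was left out in turn, except the lone MII oocyte and SCNT Aph+ arrays, whose weight in the counts was thus not tested. Leaving out 1 array gave 69 to 89 called members for fertilized Aph-, 71 to 88 for SCNT Aph-, 66 to 75 for fertilized Aph+, 43 to 62 for SCNT Aph+ and 54 to 70 for cumulus against the oocyte. It gave 70 to 87 for Aph+ against Aph- after fertilization, 59 to 74 after SCNT, 40 to 61 for the difference between them, and 1 to 5 for SCNT Aph- against fertilized Aph-, where the count was 1 without any 1 of the 3 fertilized Aph- arrays or SCNT Aph- array 2 or 3, and 5 without fertilized Aph+ array 2. No paired analysis was possible by replicate number, because these numbers are the same on every embryo array. The sample type as a block gave 46 to 84 called members in the 8 comparisons other than SCNT Aph- against fertilized Aph-. SCNT Aph+ against the oocyte in a model of the compared groups only was not run, as it has no residual degrees of freedom. Low signal limits the SCNT Aph+ array, whose undetected genes have only a bound.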
